A study of Mus musculus with 6 samples.

Results

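Glycolysis genes and classical hypoxia targets were examined in the ear skin of mice whose endothelial cells had lost Vegfr2. The 35 genes, 21 encoding glycolytic enzymes or carriers of glucose and lactate and 14 encoding other targets of the hypoxia response, were found by their symbols in a table of 18422 genes. All 35 had a row, and all 35 were among the 14866 genes counted deeply enough to be tested. Of the 6 libraries, 3 are labelled ecko, with Vegfr2 (official symbol Kdr, the main endothelial receptor of VEGF-A) deleted in endothelial cells, and 3 are labelled control, for which the description of the series names littermates. All 6 were made from whole ear skin at postnatal day 21, and both groups had been given tamoxifen, the drug that starts the deletion. Tamoxifen schedules of the series began on postnatal day 1 or on postnatal day 10, and the schedule of these mice, the Cre driver and the deleted exon are not given in the sources used here. The labels name no animal for a library, so p-values measure the spread between these samples.

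Glycolysis turns glucose into pyruvate in the cytosol, and cells short of oxygen turn that pyruvate into lactate and export it. Hypoxia-inducible factors, which are stabilised when the prolyl hydroxylases lack oxygen, bind the letters ACGTG or GCGTG near their target genes, and these targets include many glycolytic genes as well as genes for mitophagy, collagen hydroxylation and restraint of mitochondrial respiration. Epidermis relies on glycolysis even when oxygen is plentiful, and skeletal muscle of the ear carries its own forms of several glycolytic enzymes.

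The libraries held 17255416 to 18054696 estimated counts each. Kdr had 58, 37 and 42 counts in the ecko libraries, against 475, 511 and 595 in the controls, a log2 fold change of -3.54 (SE 0.17, edgeR adjusted p = 2.68e-05). Reads from Y-linked genes put ecko 3 and control 3, with 36 and 24 such reads, apart from the other 4 libraries, which had 3712 to 4390, so 4 libraries were male and 2 were female. Among the genes tested, 102 were higher and 160 were lower in ecko skin by the edgeR quasi-likelihood test at a Benjamini-Hochberg adjusted p under 0.05. The median log2 fold change of the genes tested was -0.00.

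Ak4 and Bnip3, both of the group outside glycolysis, were the members that rose in ecko skin, and no member fell. They were 2 of 35 members, against 0.686% of all genes tested that passed as higher and 1.08% that passed as lower. None of the 21 glycolytic members passed in edgeR or in limma-voom, and DESeq2 called 3 of them higher (Pfkp, Slc16a1 and Slc16a3), where limma-voom called 0.558% and DESeq2 1.27% of all genes higher. At an unadjusted p under 0.05, 10 of the 21 lay toward higher values and none toward lower ones, against 7.41% of all genes tested toward higher values. The log2 fold change, ecko over control, lay above 0 in 20 of the 21 glycolytic members and in 11 of the 14 other targets, against 49.5% of all genes tested. The median was 0.18 in the glycolytic members, within a range of -0.15 to 0.61, and 0.16 in the other targets, within a range of -0.19 to 0.71. The medians of the groups therefore differed by -0.02 (other targets minus glycolytic members), while the largest changes lay among the other targets. The 3 ecko libraries lay above the 3 controls without overlap in 13 of the 35 members, against 10.2% of all genes tested, and below them in none, against 10.8%. Those 13 were 7 glycolytic members (Hk2, Pfkp, Pfkfb3, Aldoc, Eno1, Slc16a1 and Slc16a3) and 6 other targets (Pdk1, Bnip3, Ak4, Ankrd37, Kdm3a and Mxi1). In bulk skin, fewer cells of a type and less RNA per cell cannot be told apart. Leaving out control 1 raised the number of glycolytic members that passed to 2 (Hk2 and Pfkp), where 0.353% of all genes passed as higher, and leaving out ecko 2 lowered the number of all members that passed to 1 (Ak4), where 0.147% of all genes did.

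**Figure D1:**
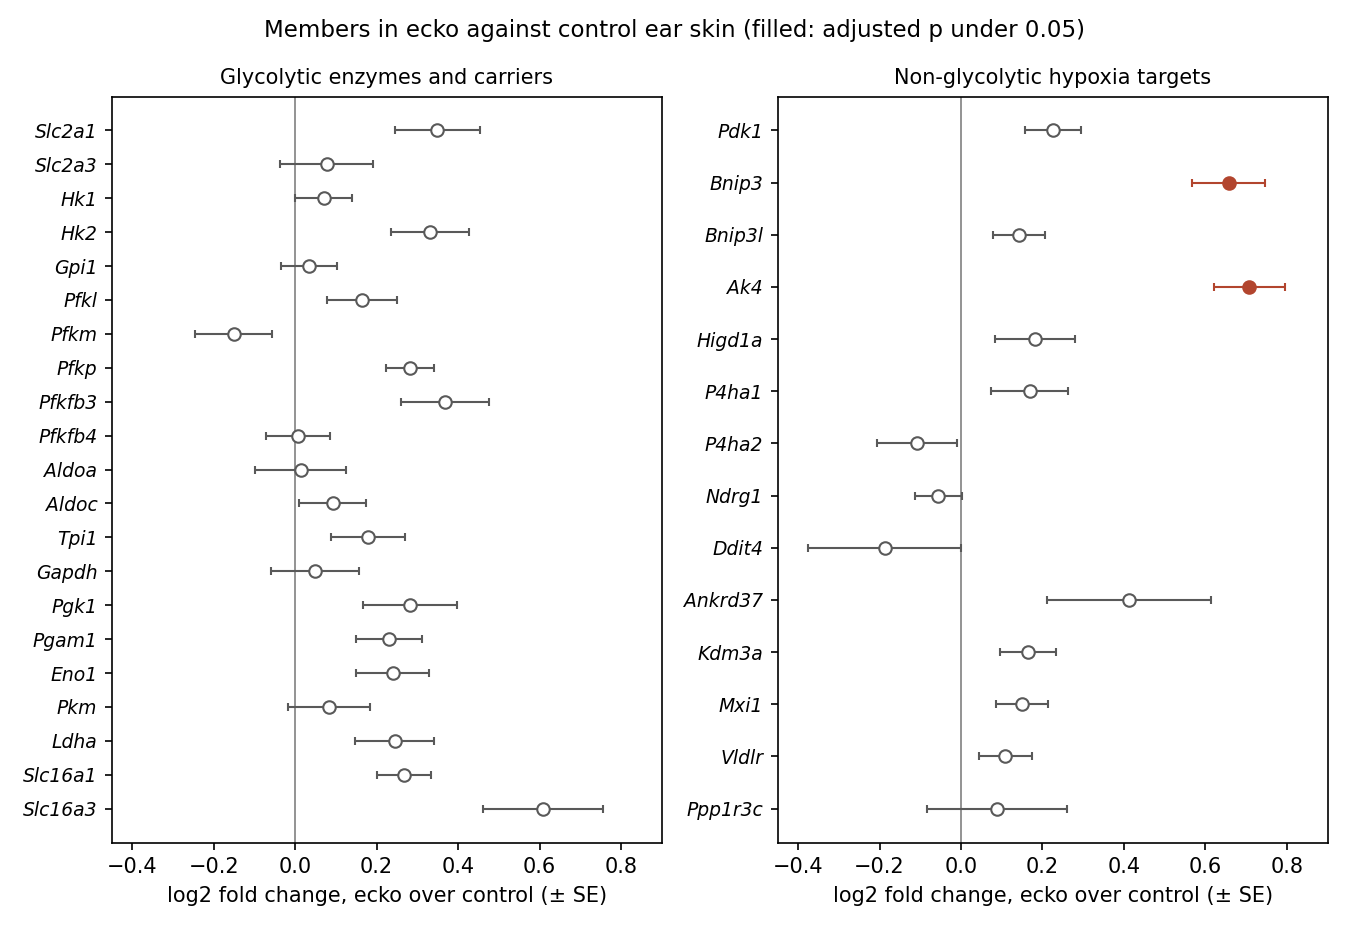
Log2 fold change of each member, ecko over control, with its SE, in glycolytic enzymes and carriers (left) and other hypoxia targets (right); filled points passed at an adjusted p under 0.05. Ak4 (0.71) and Bnip3 (0.66) are the filled points, and 31 of the 35 points lie right of 0.

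Promoter windows of 300 bases, from 250 bases before to 50 bases after an annotated start, were taken from RefSeq for GRCm38.p6. They were matched to 32 of the 35 members by gene identifier, in 53 windows. Slc2a3, Bnip3l and Ndrg1 were not matched. The 4 windows printed, each 5′ to 3′ on the strand of its gene, are those of the members that passed (Bnip3 and Ak4), of the glycolytic member with the smallest p (Pfkp) and of Ldha, whose window held the most matches. Capitals mark ACGTG or GCGTG on either strand, so that CACGT and CACGC are the same letters read on the opposite strand, and the palindrome CACGTG holds ACGTG on both strands and counts as 2 matches.
Bnip3: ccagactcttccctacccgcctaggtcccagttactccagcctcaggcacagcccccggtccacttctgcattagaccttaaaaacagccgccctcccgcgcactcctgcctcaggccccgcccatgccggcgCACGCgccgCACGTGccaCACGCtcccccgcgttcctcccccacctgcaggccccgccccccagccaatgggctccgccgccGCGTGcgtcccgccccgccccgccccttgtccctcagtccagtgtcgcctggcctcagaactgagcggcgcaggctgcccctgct
Ak4: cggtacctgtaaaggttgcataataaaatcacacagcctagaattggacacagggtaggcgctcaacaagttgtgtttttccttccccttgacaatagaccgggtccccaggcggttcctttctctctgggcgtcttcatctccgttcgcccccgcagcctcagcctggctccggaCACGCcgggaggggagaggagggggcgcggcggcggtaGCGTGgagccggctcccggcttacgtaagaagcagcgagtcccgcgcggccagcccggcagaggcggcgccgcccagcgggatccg
Pfkp: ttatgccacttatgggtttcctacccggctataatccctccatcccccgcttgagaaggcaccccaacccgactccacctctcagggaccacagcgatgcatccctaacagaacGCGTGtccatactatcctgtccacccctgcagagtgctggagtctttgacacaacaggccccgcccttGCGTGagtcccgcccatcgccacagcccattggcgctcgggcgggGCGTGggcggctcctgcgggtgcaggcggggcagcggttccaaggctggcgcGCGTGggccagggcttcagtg
Ldha: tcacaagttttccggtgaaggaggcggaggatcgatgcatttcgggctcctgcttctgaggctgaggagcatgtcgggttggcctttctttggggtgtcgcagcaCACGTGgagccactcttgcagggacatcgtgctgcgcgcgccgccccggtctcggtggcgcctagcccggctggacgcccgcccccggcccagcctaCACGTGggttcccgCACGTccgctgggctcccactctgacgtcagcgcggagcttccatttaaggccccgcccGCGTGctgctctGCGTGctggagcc
The Bnip3 window lies at chr7:138909457-138909756 on the minus strand and held 2 ACGTG and 3 GCGTG matches. The Ak4 window lies at chr4:101419039-101419338 on the plus strand and held 0 ACGTG and 2 GCGTG matches, and the most downstream of the 4 windows of Ak4 held 2 and 1. The Pfkp window lies at chr13:6648722-6649021 on the minus strand and held 0 ACGTG and 4 GCGTG matches, and the Ldha window, at chr7:46845554-46845853 on the plus strand, held 5 and 2. At least 1 match stood in a window of 29 of the 32 members (90.6%), against 7590 of the 11764 tested genes with a window (64.5%). Counted by window, the share was 77.4% of the members' windows and 58.8% of those of all tested genes. The share was alike in both groups of members, at 18 of 20 glycolytic genes (90%) and 11 of 12 other targets (91.7%), and Gpi1, Tpi1 and Vldlr held no match. A match is only a stretch of letters, and binding was not measured.

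Glucose enters cells through the carriers encoded by Slc2a1, the main carrier of epidermis, and Slc2a3, a high-affinity carrier best known in neurons. Slc2a1 had 68.2, 67.0 and 52.8 CPM (counts scaled to a common library total) in the ecko libraries, against 53.8, 48.7 and 45.2 CPM in the controls. Ecko 3 lay just below control 1, so the groups overlapped, and the log2 fold change was 0.35 (SE 0.10, edgeR adjusted p = 0.155). Slc2a3 had 7.76, 7.75 and 8.72 CPM in the ecko libraries, against 7.68, 8.25 and 7.03 CPM in the controls, and the groups overlapped. Its log2 fold change of 0.08 in all 6 libraries turned to -0.04 in the 4 male libraries alone. Slc2a4, the insulin-responsive carrier of muscle and fat and not a member, had a log2 fold change of the opposite sign, with 44.5, 43.2 and 40.4 CPM in the ecko libraries, against 59.1, 48.7 and 49.0 CPM in the controls (-0.29, edgeR adjusted p = 0.148).

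Hexokinases, encoded by Hk1 and Hk2, trap glucose as glucose 6-phosphate. Hk2, the inducible form, had 81.0, 83.2 and 74.7 CPM in the ecko libraries, against 73.7, 58.0 and 58.3 CPM in the controls. All 3 ecko libraries lay above the controls, control 1 stood close below them, and the log2 fold change was 0.33 (SE 0.10, edgeR adjusted p = 0.143). Without control 1 the log2 fold change of Hk2 was 0.46 and passed, at an edgeR adjusted p of 0.0217. Hk1, the form present in most tissues, averaged 112 ± 3.24 CPM in ecko skin and 107 ± 9.13 CPM in control skin (SD, n = 3 each), with overlap. Gpi1, which encodes the isomerase of the next step, averaged 300.4 ± 19.0 CPM in ecko skin and 294 ± 14.0 CPM in control skin (SD, n = 3 each), also with overlap.

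Phosphofructokinase, the main control point of glycolysis, has muscle (Pfkm), liver (Pfkl) and platelet (Pfkp) forms. Pfkp had 112, 108 and 105 CPM in the ecko libraries, against 93.7, 89.0 and 84.3 CPM in the controls. The groups did not overlap, the log2 fold change was 0.28 (SE 0.06) and the edgeR adjusted p of 0.0516 just missed the threshold. Pfkp passed in 5 of the 15 alternative fits, among them DESeq2 (adjusted p = 0.0164) and the fit with a sex term (edgeR adjusted p = 0.0440), with log2 fold changes of 0.24 to 0.32 over the 15. Its exons overlap those of Pitrm1 on the opposite strand by 748 bases and its counts were not whole numbers, while Pitrm1 had a log2 fold change of 0.02. Pfkl had 66.4, 67.6 and 62.5 CPM in the ecko libraries, against 60.2, 64.1 and 51.0 CPM in the controls, with overlap (log2 fold change 0.16). Pfkm was the only glycolytic member with a log2 fold change below 0, at -0.15 (SE 0.10, edgeR adjusted p = 0.506). It had 227, 242 and 211 CPM in the ecko libraries, against 289.6, 240.2 and 225 CPM in the controls, where control 1 stood above all others.

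The 3 forms therefore held different shares of the phosphofructokinase counts in the groups. Per kilobase of transcript, Pfkm made up 64.3%, 66.0% and 64.0% of the counts of the 3 genes in the ecko libraries, against 72.6%, 68.8% and 70.1% in the controls. Pfkp made up 21.5%, 20.1% and 21.6% in the ecko libraries, against 16.0%, 17.3% and 17.9% in the controls, and Pfkl averaged 14.2% in ecko skin and 12.4% in control skin. None of the 3 shares overlapped between groups on this scale. On raw counts, the share of Pfkl did overlap. With 3 libraries against 3, the exact two-sided permutation p of such a share cannot go below 0.1, which each of them reached, and it was 0.167 after adjustment over the 10 shares compared.

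Pfkfb3 and Pfkfb4 encode enzymes that make fructose 2,6-bisphosphate, the activator of phosphofructokinase. Pfkfb3 had 52.1, 53.2 and 47.0 CPM in the ecko libraries, against 38.5, 46.0 and 33.5 CPM in the controls. All 3 ecko libraries lay above the controls, and the log2 fold change was 0.37 (SE 0.11, edgeR adjusted p = 0.145). Pfkfb4 averaged 31.0 ± 2.74 CPM in ecko skin and 30.9 ± 0.63 CPM in control skin (SD, n = 3 each), and its log2 fold change of 0.01 turned to -0.01 with upper-quartile scaling or without control 2, to -0.05 without ecko 1 and to -0.00 without ecko 2. Pfkfb3 accordingly made up 55.2% of the pair's counts per kilobase in ecko skin and 48.7% in control skin, without overlap (exact permutation p = 0.1, n = 3 each).

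The levels of the members spanned a wide range. Per kilobase of transcript, Gapdh stood highest at 992 CPM in ecko skin and 958 in control skin, followed by Aldoa at 717 and 710.4, Ldha at 349.6 and 295 and Pkm at 303 and 286, while Slc2a3 stood lowest at 2.04 and 1.93. Aldoa, the main aldolase of muscle and many other tissues, had 1070, 1124 and 947 CPM in the ecko libraries, against 1177, 1054 and 881 CPM in the controls. Its groups overlapped over nearly their whole range and its log2 fold change of 0.01 changed sign with upper-quartile scaling (-0.00) and in males alone (-0.02), and also without control 3 (-0.09), without ecko 1 (-0.00) or without ecko 2 (-0.04). Gapdh, often used as a reference gene, had 1350, 1453 and 1204 CPM in the ecko libraries, against 1456, 1277 and 1137 CPM in the controls, with a log2 fold change of 0.05 that turned to -0.03 without control 3 and to -0.02 without ecko 2. Aldoc, an aldolase best known in brain, had 16.6, 16.8 and 16.7 CPM in the ecko libraries, against 15.4, 16.1 and 15.5 CPM in the controls. Its groups did not overlap although the log2 fold change was only 0.09. Tpi1, which encodes triosephosphate isomerase, averaged 333 ± 29.8 CPM in ecko skin and 294 ± 30.2 CPM in control skin (SD, n = 3 each), with overlap.

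Of the enzymes after Gapdh, Eno1 (enolase) had 326, 368 and 296.2 CPM in the ecko libraries, against 287, 295.6 and 256 CPM in the controls. The lowest ecko library and the highest control nearly met, and the log2 fold change was 0.24 (edgeR adjusted p = 0.245). Pgk1 (phosphoglycerate kinase) had 279, 313 and 251 CPM in the ecko libraries, against 266, 234 and 194 CPM in the controls. Pgam1 (phosphoglycerate mutase) had 200.8, 219 and 176 CPM in the ecko libraries, against 167, 179 and 163 CPM in the controls. Both had log2 fold changes close to that of Eno1, at 0.28 and 0.23, and in both the third ecko library fell within the control range. Pkm (pyruvate kinase) averaged 738 ± 70.3 CPM in ecko skin and 696 ± 77.3 CPM in control skin (SD, n = 3 each), with a log2 fold change of 0.08.

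Lactate production and export had the highest median of the glycolytic steps, at 0.27 over 3 genes. Ldha, the lactate dehydrogenase subunit that favours lactate, had 584, 639.6 and 535 CPM in the ecko libraries, against 541, 512 and 432 CPM in the controls. Ecko 3 lay just below control 1, and the log2 fold change was 0.24 (SE 0.10, edgeR adjusted p = 0.274). Slc16a3, the lactate exporter MCT4 of glycolytic cells, had 27.2, 29.7 and 21.8 CPM in the ecko libraries, against 20.0, 17.5 and 14.1 CPM in the controls. The groups did not overlap, and its log2 fold change of 0.61 (SE 0.15) was the largest of the glycolytic members, at an edgeR adjusted p of 0.0867. It passed in 3 of the 15 alternative fits, among them DESeq2 (adjusted p = 0.00483) and the fit with a sex term (edgeR adjusted p = 0.0145). Slc16a1, the lactate carrier MCT1 found in most cells, had 109.7, 116 and 101 CPM in the ecko libraries, against 91.6, 86.8 and 93.4 CPM in the controls. These groups did not overlap either, with a log2 fold change of 0.27 (SE 0.07, edgeR adjusted p = 0.0927, DESeq2 adjusted p = 0.0470).

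**Figure D2:**
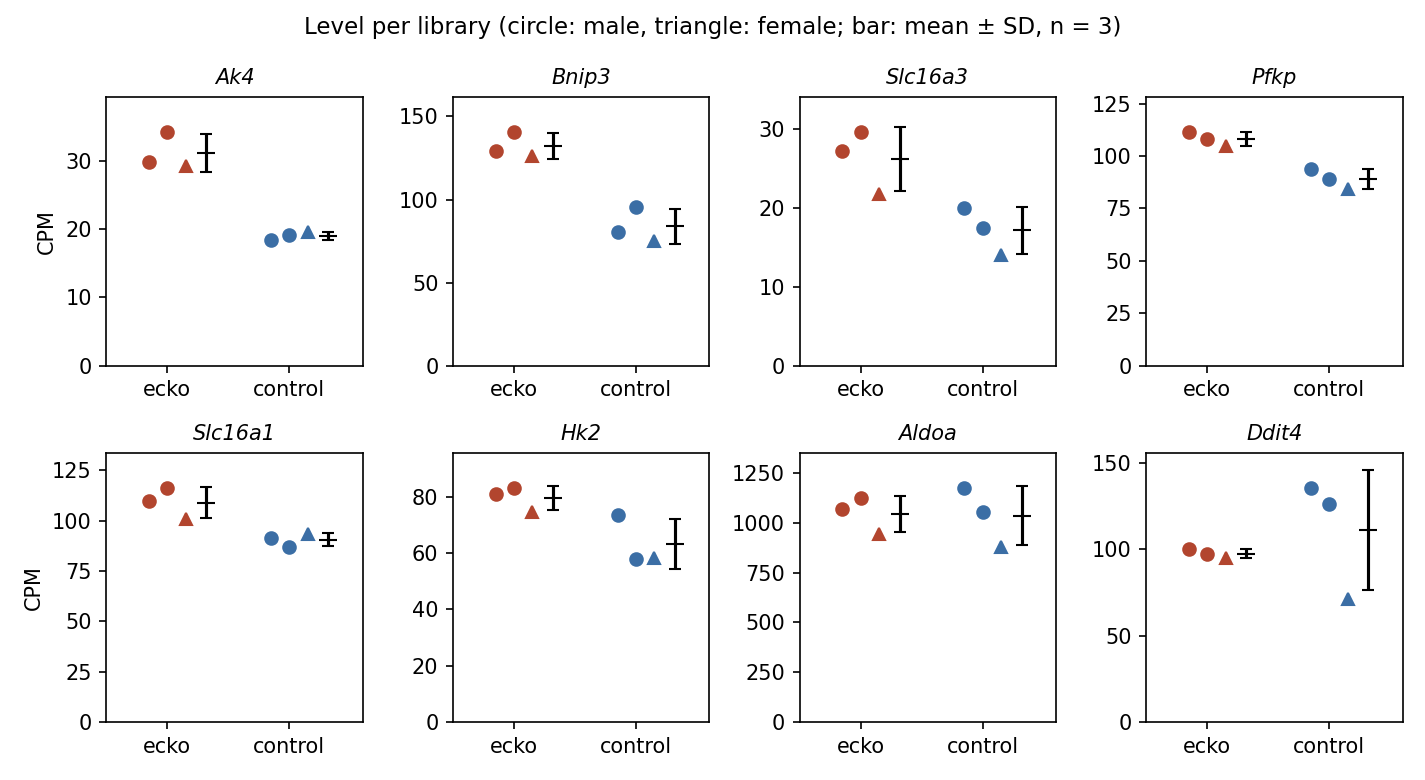
CPM of 8 members in each library, ecko left and control right, with circles for male and triangles for female libraries and the mean ± SD of 3 libraries beside them. Ak4, Bnip3, Slc16a3, Pfkp, Slc16a1 and Hk2 do not overlap between groups, whereas Aldoa and Ddit4 do.

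The members acting on mitochondria held both genes that rose. Ak4, a mitochondrial adenylate kinase, had 29.8, 34.2 and 29.2 CPM in the ecko libraries, against 18.4, 19.1 and 19.6 CPM in the controls. The gap between the lowest ecko library and the highest control exceeded the spread within either group, and the log2 fold change was 0.71 (SE 0.09, edgeR adjusted p = 0.00534). Ak4 passed in all 15 alternative fits, with log2 fold changes of 0.63 to 0.77 and adjusted p-values of at most 0.0349, and its counts were not whole numbers. Bnip3, which marks mitochondria for degradation, had 129, 141 and 126 CPM in the ecko libraries, against 80.5, 95.8 and 75.1 CPM in the controls. The groups lay well apart, with a log2 fold change of 0.66 (SE 0.09, edgeR adjusted p = 0.00907). Bnip3 passed in 14 of the 15 alternative fits and missed the threshold without ecko 2 (edgeR adjusted p = 0.0549). Its exons overlap by 342 bases with Gm45507 on the opposite strand, a gene not analysed here, and reads of such pairs cannot be told apart because the protocol names no step that keeps the strand.

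Bnip3l, the paralog of Bnip3 with a like role in mitophagy, had a smaller log2 fold change. It had 222, 225 and 214 CPM in the ecko libraries, against 188, 196 and 215 CPM in the controls, so the groups overlapped (log2 fold change 0.14, SE 0.06, edgeR adjusted p = 0.332). Bnip3 therefore made up 51.8%, 53.6% and 52.0% of the pair's counts per kilobase in the ecko libraries, against 44.1%, 47.4% and 39.2% in the controls, without overlap (exact permutation p = 0.1, n = 3 each). Pdk1 encodes a kinase that switches off pyruvate dehydrogenase. It had 90.8, 95.6 and 94.0 CPM in the ecko libraries, against 87.3, 74.5 and 77.8 CPM in the controls. All 3 ecko libraries lay above the controls, with a log2 fold change of 0.23 (SE 0.07, edgeR adjusted p = 0.158). Higd1a, a small protein of the inner mitochondrial membrane, averaged 56.4 ± 6.64 CPM in ecko skin and 49.8 ± 4.86 CPM in control skin (SD, n = 3 each), with overlap. The exons of Higd1a overlap by 683 bases with Gm47112 on the opposite strand, a gene not analysed here, so the same limit holds as for Bnip3.

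P4ha1 and P4ha2 encode the catalytic subunits of prolyl 4-hydroxylase, which stabilises collagen. P4ha1 had 77.4, 79.3 and 74.9 CPM in the ecko libraries, against 66.2, 79.6 and 60.3 CPM in the controls. P4ha2 had 47.0, 47.1 and 47.8 CPM in the ecko libraries, against 51.3, 58.3 and 43.2 CPM in the controls. The controls spread more widely than the ecko libraries in both genes, the groups overlapped, and their log2 fold changes of 0.17 and -0.11 had opposite signs, though that of P4ha2 was 0.00 without control 2. Within the pair, P4ha1 made up 47.6%, 48.2% and 46.4% of the counts per kilobase in the ecko libraries, against 41.6%, 42.9% and 43.5% in the controls, without overlap (exact permutation p = 0.1, n = 3 each). Of the 10 shares compared, those of Hk2 with Hk1, Aldoa with Aldoc, Slc2a1 with Slc2a3 and Slc16a3 with Slc16a1 overlapped between groups.

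Of the 5 members of stress and transcription (Ddit4, Ndrg1, Kdm3a, Mxi1 and Ankrd37), 0 passed in edgeR. The log2 fold change lay above 0 in 3 of them, near the share of 49.5% of all genes tested. An unadjusted p under 0.05 toward higher values was found in 2, against 7.41% of all genes tested. Kdm3a, a histone demethylase that needs oxygen, had 76.1, 79.5 and 87.3 CPM in the ecko libraries, against 72.3, 75.1 and 69.3 CPM in the controls (log2 fold change 0.16, SE 0.07, edgeR adjusted p = 0.288). Mxi1, a repressor that opposes Myc, had 129, 126.4 and 130 CPM in the ecko libraries, against 112, 109.8 and 125.8 CPM in the controls (log2 fold change 0.15, SE 0.06, edgeR adjusted p = 0.304). Neither gene overlapped between groups, but for Mxi1 ecko 2 and control 3 nearly met. Ankrd37, an ankyrin repeat gene known as a target of hypoxia-inducible factors, was the least counted member, with 51, 61 and 50 counts in the ecko libraries, against 48, 32 and 40 in the controls. Its log2 fold change of 0.41 (SE 0.20, edgeR adjusted p = 0.371) rests on these few counts, and its exons overlap Lrp2bp by 259 bases on the opposite strand. Vldlr, a lipoprotein receptor, averaged 79.9 ± 4.02 CPM in ecko skin and 74.1 ± 4.05 CPM in control skin (SD, n = 3 each), with overlap.

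Ddit4 and Ndrg1 had log2 fold changes below 0. Ddit4, an inhibitor of mTORC1 that also answers to glucocorticoids, had 100.2, 97.2 and 95.0 CPM in the ecko libraries, against 136, 126 and 71.4 CPM in the controls. The ecko libraries were alike, control 3 lay below them and the other controls above, and the log2 fold change was -0.19 (SE 0.19, edgeR adjusted p = 0.707). Without control 3 it was -0.42 and passed as lower (edgeR adjusted p = 0.0118), where 1.61% of all genes did, and in the 4 male libraries it was -0.41 (edgeR adjusted p = 0.0473), where 0.610% of all genes passed as lower. Without control 1 it was -0.02 (edgeR adjusted p = 0.984), so the value turns on single controls. Ndrg1, a gene induced by stress and by differentiation, averaged 179 ± 4.03 CPM in ecko skin and 186 ± 8.59 CPM in control skin (SD, n = 3 each), with a log2 fold change of -0.06. Ppp1r3c, which brings protein phosphatase to glycogen, had 66.0, 69.6 and 61.4 CPM in the ecko libraries, against 71.7, 71.8 and 41.8 CPM in the controls. Control 3 again stood apart, and the log2 fold change of 0.09 turned to -0.13 without it and to -0.08 in males alone.

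**Figure D3:**
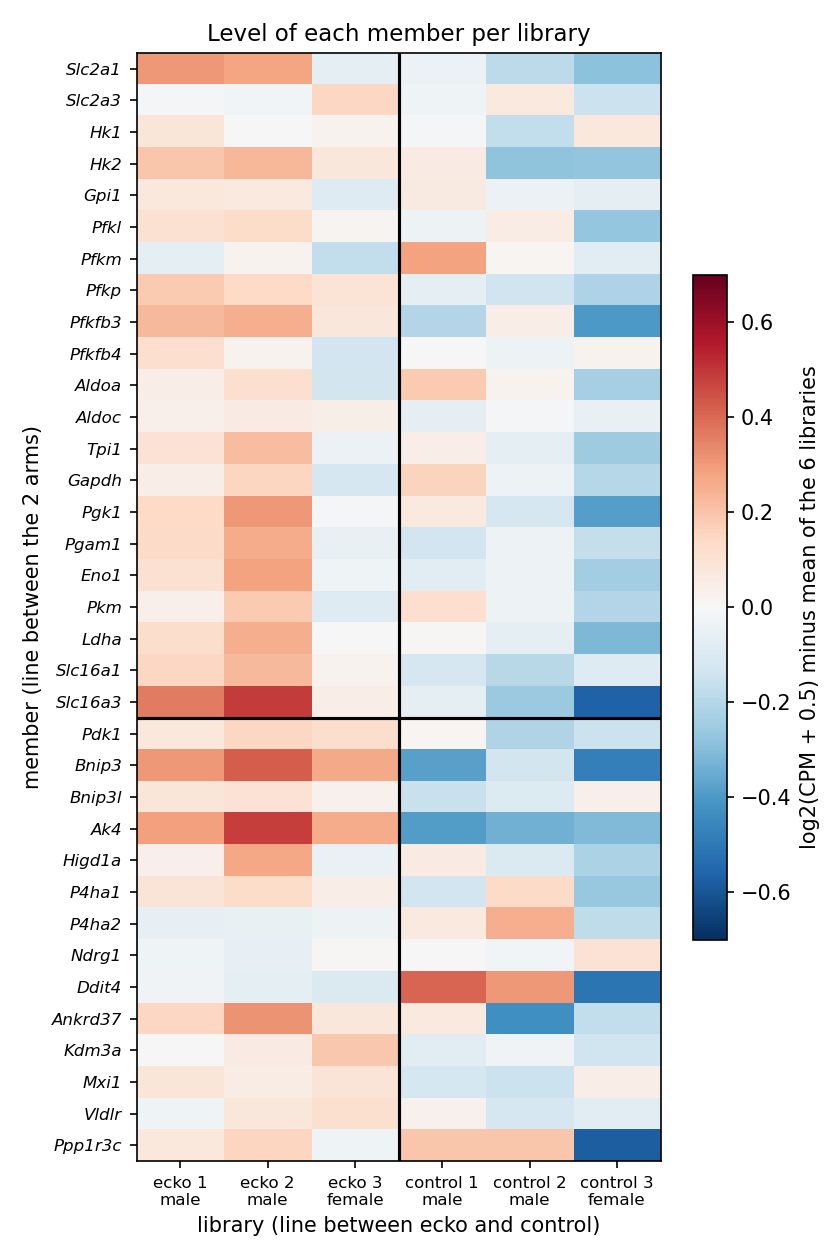
Level of each member in each library as log2(CPM + 0.5) minus the member's mean over the 6 libraries, with ecko left of control and the glycolytic members above the other targets. Ecko 2 was the highest library in 18 of the 35 members and control 3 the lowest in 21.

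The members moved together between libraries of the same group as well as between groups. The mean of log2(CPM + 0.5), centred on each gene's mean, was 0.117, 0.175 and -0.019 over the glycolytic members in the ecko libraries, against 0.006, -0.071 and -0.208 in the controls. Over the other targets it was 0.074, 0.145 and 0.071 in the ecko libraries, against -0.03, -0.053 and -0.206 in the controls. The female library was thus the lowest of its group for the glycolytic members in both groups, in 18 of 21 members for ecko 3 and in 16 of 21 for control 3. Among the 4 male libraries, ecko lay above control without overlap in 16 of the 21 glycolytic members and below in 0, against 22.5% and 23.3% of all genes tested. Of the 14 other targets, 7 lay above and 4 below among males. Between the 2 female libraries, ecko 3 lay above control 3 in 17 of the 21 glycolytic members and in 12 of the 14 other targets, against 49.4% of all genes tested.

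With a sex term, 5 members passed as higher, Slc2a1, Pfkp and Slc16a3 (edgeR adjusted p = 0.0453, 0.0440 and 0.0145) beside Ak4 and Bnip3, and the background remained 0.686% of genes. The males and the females differed in the sign of the ecko effect, without overlap, in 7 of the 35 members, against 15.7% of all genes tested, a share near that background. Each group had 1 female library, so any difference between the females counted as no overlap, however small. That of Bnip3l was 214.5 CPM in ecko 3 against 215.1 CPM in control 3. By this count, Hk1, Gpi1, Pfkfb4 and Bnip3l were higher in male ecko and lower in female ecko skin. Ddit4, P4ha2 and Ppp1r3c had the opposite pair of signs in the sexes. In a test of that difference itself, an edgeR interaction term on 4 male and 2 female libraries, none of the 35 members passed, against 0.0336% of all genes tested, and 3 had an unadjusted p under 0.05, against 6% of all genes. Ddit4 came nearest, with a male effect 0.82 below the female one on the log2 scale (difference -0.82, SE 0.12, edgeR adjusted p = 0.250).

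Other genes of the pathway were measured too. Of 28 other tested genes of glucose uptake, glycolysis and glycogen, 0 passed in edgeR. At an unadjusted p under 0.05, 2 lay toward higher values, against 7.41% of all genes tested, and 6 toward lower ones, against 7.95%. DESeq2 called 1 lower, where it called 231 of 15385 genes lower. The log2 fold change lay below 0 in 19 (median -0.14), against 7504 of the 14866 genes tested. Pygm, the glycogen phosphorylase of muscle, had 178, 191 and 162 CPM in the ecko libraries, against 298, 234 and 217 CPM in the controls. The groups did not overlap, and the log2 fold change was -0.50 (SE 0.11, edgeR adjusted p = 0.0665). Eno3, the muscle enolase, had 260.0, 283 and 241 CPM in the ecko libraries, against 424, 313 and 278 CPM in the controls, overlapping narrowly at a log2 fold change of -0.37. Pgam2, the muscle mutase, averaged 82.3 ± 9.47 CPM in ecko skin and 96.8 ± 23.4 CPM in control skin (SD, n = 3 each).

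The balance between a broadly used form and a form of muscle (for Slc2a4, of muscle and fat) separated the groups in each of 3 pairs. These pairs were chosen after their values were seen. Eno1 made up 47.4%, 48.4% and 47.0% of the counts per kilobase of Eno1 and Eno3 in the ecko libraries, against 32.8%, 40.5% and 39.8% in the controls. Pgam1 made up 52.3%, 53.9% and 53.9% of Pgam1 and Pgam2 in the ecko libraries, against 39.5%, 47.0% and 51.0% in the controls. Slc2a1 made up 54.2%, 54.6% and 50.3% of Slc2a1 and Slc2a4 in the ecko libraries, against 41.3%, 43.7% and 41.6% in the controls. Of 18 skeletal muscle markers, 2 passed as lower (Tcap and Ryr1), against 1.08% of all genes tested. The log2 fold change lay below 0 in 16 of them and above 0 in 2. Without overlap, 14 lay below the controls, against 10.8% of all genes tested. Their median log2 fold change was -0.45. Their summed level was 8456, 8858 and 7739 CPM in the ecko libraries, against 13850, 10290 and 9335 CPM in the controls. No muscle marker was at 0 in all libraries. The part of muscle content in these shares, in Pfkm and in Aldoa was not tested, nor was that of fat in the Slc2a1 share.

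**Figure D4:**
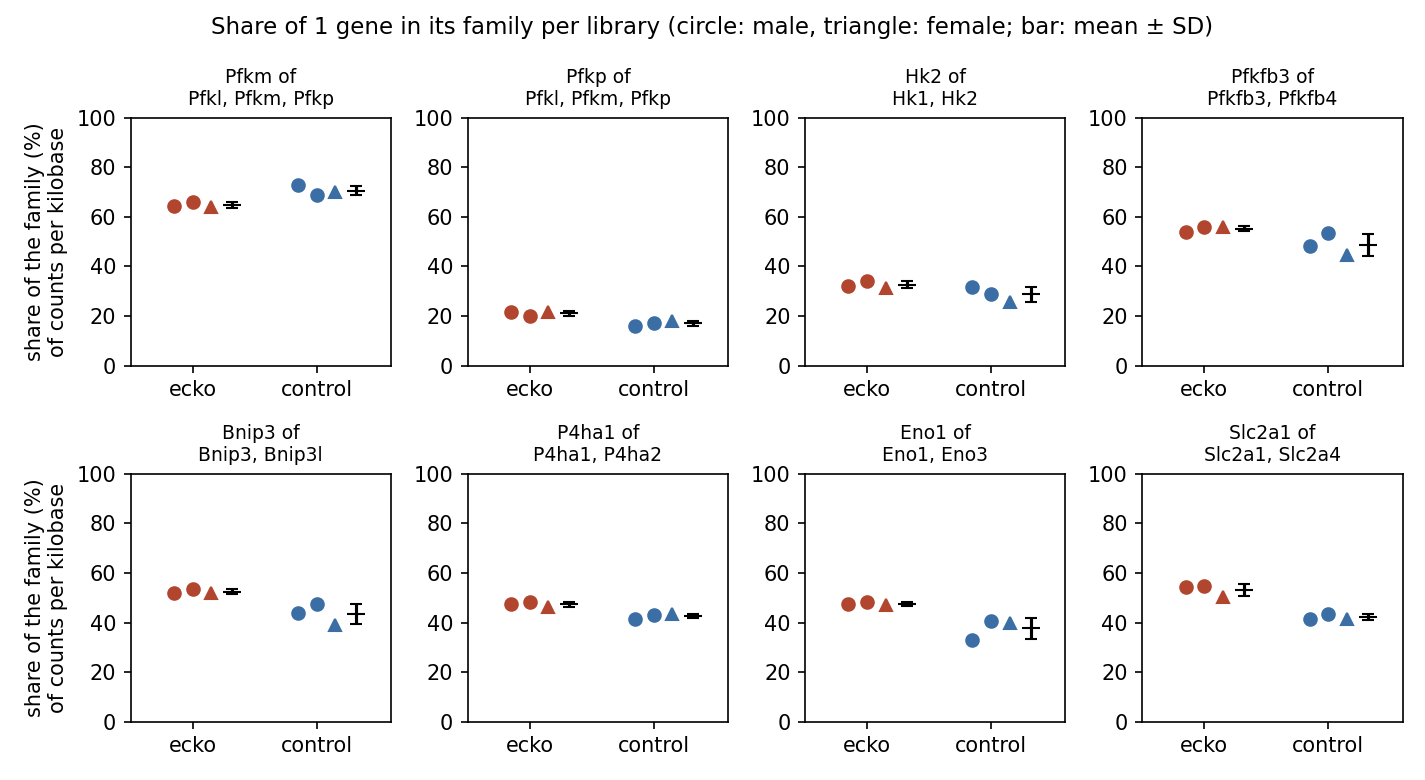
Share of 1 gene in the counts per kilobase of its pair or family, in percent, per library, ecko left and control right, with circles for male and triangles for female libraries and the mean ± SD of 3 libraries beside them. The Pfkm share is lower in ecko (64.8%, against 70.5% in control), the Hk2 share overlaps and the other 6 shares are higher in ecko without overlap. The pairs of Eno1 with Eno3 and of Slc2a1 with Slc2a4 were chosen after their values were seen. Shares of Aldoa, of Slc2a1 with Slc2a3 and of Slc16a3, which overlapped, are not drawn.

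Hypoxia genes outside the 35 were also counted. Of 38 tested targets and oxygen sensors, 8 rose, against 0.686% of all genes tested, and 1 fell, against 1.08%. Their median log2 fold change was 0.15. Pfkfb2 was counted in this list and also among the other glycolysis genes. Car9, which encodes a carbonic anhydrase of the cell surface, had 4.40, 5.81 and 5.76 CPM in the ecko libraries, against 0.635, 1.65 and 1.13 CPM in the controls (log2 fold change 2.22, edgeR adjusted p = 0.00553). Egln3, a prolyl hydroxylase, had 144, 132 and 110.1 CPM in the ecko libraries, against 60.4, 64.1 and 60.6 CPM in the controls (log2 fold change 1.06, edgeR adjusted p = 0.000951). The others that rose were Ndufa4l2 (0.98), Vegfa (0.75), Tfrc (0.65), Car12 (0.58), Ero1l (0.44) and Egln1 (0.34), and Pdgfb, a growth factor that endothelial cells make, fell by 0.51 on the log2 scale. Car12 and Egln1 each passed in 7 of the 15 alternative fits and missed the threshold, among others, with upper-quartile scaling (edgeR adjusted p = 0.0544 and 0.0525) and with a replicate block (0.0630 and 0.0576). Tfrc passed in 12 and Ero1l and Pdgfb in 13 of the 15. Leaving out ecko 2 left 4 of the 38 genes higher and none lower, where 22 of all genes passed as higher and 34 as lower. Leaving out ecko 1 left 5 higher, where 24 of all genes did. The 4 male libraries alone gave 4 higher and none lower, where 83 of all genes passed as higher and 91 as lower.

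Markers of other cell types of the ear were counted as well, where 0.686% of all genes tested passed as higher and 1.08% as lower. At an unadjusted p under 0.05, 7.41% of all genes tested lay toward higher values and 7.95% toward lower ones. Without overlap, 10.2% lay above the controls and 10.8% below them, and 49.5% had a log2 fold change above 0. Endothelial markers lay lower in all 12 genes, without overlap, 10 of them passed, and their summed level was 319, 313 and 319 CPM in the ecko libraries, against 528, 513 and 481 CPM in the controls. Of 12 fat cell markers 6 passed as lower, with summed levels of 698, 831 and 793 CPM in the ecko libraries, against 1025, 1193 and 991 CPM in the controls. The log2 fold change lay below 0 in 11 fat cell markers and above 0 in 1 (Lep, 0.88, edgeR adjusted p = 0.231). Of 12 wound keratinocyte markers 5 passed as higher and 5 overlapped between groups. Their summed levels were 614, 700.3 and 402 CPM in the ecko libraries, against 291, 315 and 329 CPM in the controls. The mean of their centred log2(CPM + 0.5) was 0.757, 1.038 and -0.266 in the ecko libraries, against -0.526, -0.714 and -0.289 in the controls, so ecko 3 lay close to control 3. Of 15 markers of differentiated keratinocytes, 2 passed as higher, and none of the 8 basal keratinocyte markers passed in edgeR (1 had an unadjusted p under 0.05). Summed over its list, differentiated keratinocyte expression was 31940, 29030 and 29940 CPM in the ecko libraries, against 25950, 26200 and 29600 CPM in the controls. Of 12 immediate early genes, which cells switch on within minutes of a stimulus, 12 had a log2 fold change above 0 (median 0.51), 1 (Btg2) passed as higher in edgeR and 6 had an unadjusted p under 0.05. Their summed level was 1576, 955 and 755 CPM in the ecko libraries, against 562, 749 and 813 CPM in the controls. Neutrophil markers, 2 of which (S100a8 and S100a9) also stand in the wound keratinocyte list, had log2 fold changes above 0 in all 5 tested genes (median 0.77), with 0 that passed in edgeR and 3 at an unadjusted p under 0.05, and summed to 115.5, 183 and 43.9 CPM in the ecko libraries, against 42.3, 33.9 and 54.4 CPM in the controls. Macrophage markers had log2 fold changes above 0 in all 10 genes (median 0.25), with 0 that passed in edgeR and 2 at an unadjusted p under 0.05, and summed to 992, 994 and 996 CPM in the ecko libraries, against 599, 993.5 and 914 CPM in the controls. Ecko 3 lay among the controls in the immediate early and neutrophil sums, and control 1 stood below the other libraries in the macrophage sum. Of 11 tested chondrocyte markers, 10 had a log2 fold change below 0 (median -0.29), 1 (Col11a2) passed as lower in edgeR, and the sums were 1695, 1610 and 1669 CPM in the ecko libraries, against 1908, 2360 and 1734 CPM in the controls. None of 8 red cell genes passed in edgeR (median -0.50, 2 at an unadjusted p under 0.05), with sums of 1388, 769.8 and 969 CPM in the ecko libraries, against 1730, 2425 and 1134 CPM in the controls, and none of 8 fibroblast markers did (median -0.06, 0 at an unadjusted p under 0.05). The part of these cells in the members' values was not tested.

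**Figure D5:**
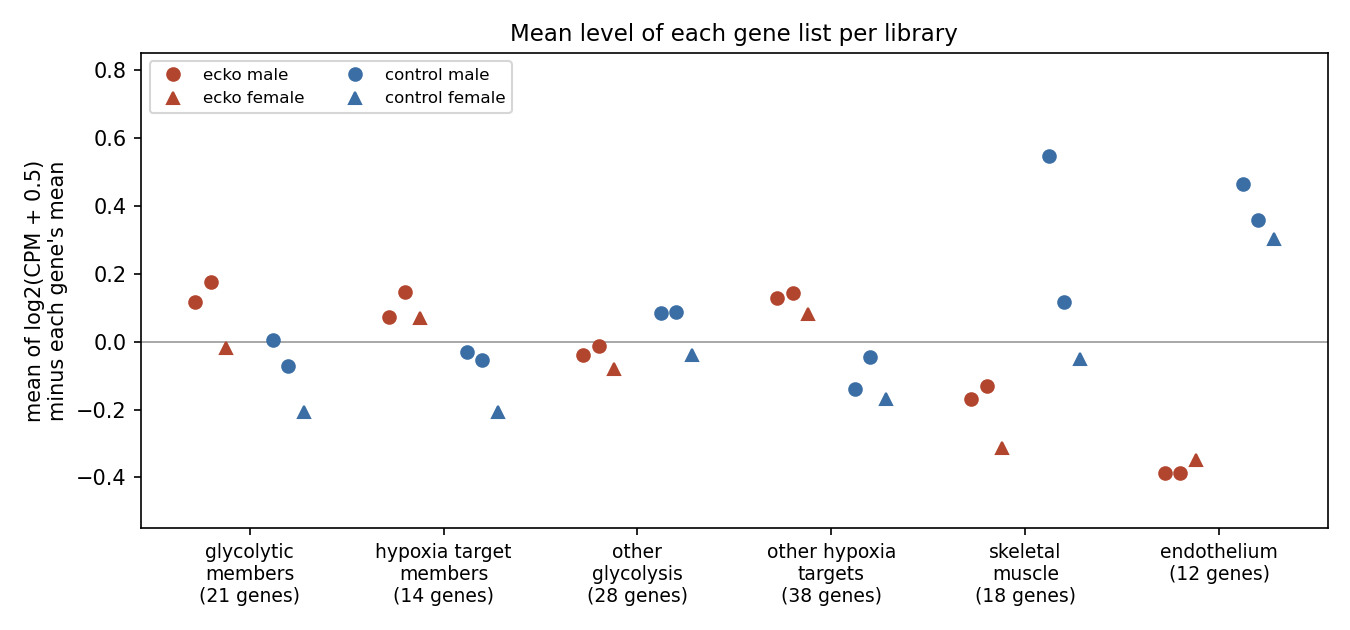
Mean of log2(CPM + 0.5), centred on each gene's mean over the 6 libraries, for 6 gene lists, with one point per library, ecko left of control, circles male and triangles female. The glycolytic and other hypoxia target members stand higher in ecko than in control libraries of the same sex, while the muscle and endothelial lists stand lower in all 3 ecko libraries than in any control.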

How the data were processed

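Poly(A) RNA of whole ear skin was sequenced, per the labels' protocols, which name no step that keeps the strand. The authors deposited 1 table of expected counts (estimated reads for each gene in each library) with no scaling, as its values and, per the file headers, its columns show, and 10.5% of the values were not whole. The submitters' processing notes name the build GRCm38.p6 and the tools RSEM 1.3.1, HISAT2 2.2.1 and Bowtie2 2.4.5 and give them no roles. RSEM shares out ambiguous reads by estimate, and 7 of the 35 members (Gpi1, Pfkp, Gapdh, Eno1, Slc16a3, Ak4 and Higd1a) had counts that were not whole. Beside the exon overlaps given above, other genes overlap Pkm (454 bases) and Pfkm (341 bases) on the same strand. On the opposite strand they overlap Ndrg1 (329 bases), Gpi1 (255), Mxi1 (194), Hk1 (157) and Slc2a1 (105), and Gapdh, Tpi1 and Aldoa by fewer bases.

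Rounded counts passed filterByExpr (minimum count 10), which kept 14866 of 18422 genes, and TMM scaling. The quasi-likelihood test of edgeR 4.0.16 (R 4.3.3) compared ecko with control over all 6 libraries, with no term beside genotype and with Benjamini-Hochberg adjustment over all genes tested. The SE of a log2 fold change is |log2 fold change| over the root of F. CPM refers to TMM-scaled library sizes. The biological coefficient of variation was 8.8%, and no library was a duplicate (same-group libraries varied by 4.91 to 14.9 times sampling noise). At least 500 reads from Y-linked genes marked a library as male. Shares within gene pairs used the median length of principal coding transcripts in the GENCODE annotation of GRCm38 and an exact two-sided permutation test over libraries. RefSeq held the identifiers of 18370 genes (99.7%). The scripts were tested on simulated counts.

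The members and gene lists were chosen with earlier results of these data known, so no list has a test of its own. Any member could be named. The rule gave full statistics to members that passed and to the 5 others with the smallest p in each group, and other members were given an SE and adjusted p after values were seen. Of the other pathway lists, up to 8 genes that passed were to be named per list, and Pdgfb was added because it alone fell. Slc2a4, Pygm, Eno3 and Pgam2 were named, and the interaction with sex was fitted, after values were seen. The alternatives were scaling by RLE or upper quartile, DESeq2 1.42.0, limma-voom (limma 3.58.1), no low-count filter, at least 1 CPM in 3 libraries, a block for the replicate number, a term for sex, male libraries alone, omission of each library in turn and a threshold of 0.1.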

Additional observations from a re-analysis of the deposited data

How the results depend on the processing

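Over the alternatives, the median log2 fold change stayed above 0 in both groups of members, at 0.13 to 0.24 for the glycolytic members and 0.13 to 0.18 for the other targets when 1 library was left out, and the difference of the medians lay between -0.092 and -0.0009. Counts of calls were less steady. Glycolytic members called higher numbered 1 with RLE factors, 3 with DESeq2, 1 with no low-count filter, 1 with the replicate block, 3 with the sex term, 3 at adjusted p under 0.1 and 0 to 2 when 1 library was left out. All members called higher numbered 5 with DESeq2, 5 with the sex term, 5 at adjusted p under 0.1 and 1 to 4 when 1 library was left out. Members called lower, all of them other hypoxia targets, numbered 1 in the male libraries and 0 to 1 when 1 library was left out, and other hypoxia targets called higher then numbered 1 to 2. Of the other glycolysis genes, 1 was called higher at adjusted p under 0.1, and 1 was called lower with DESeq2, with the sex term and at adjusted p under 0.1, and 0 to 1 when 1 library was left out. Of the hypoxia genes outside the 35, 4 were called higher and 0 lower in the male libraries, and 4 to 7 higher and 0 to 1 lower when 1 library was left out. Genes called higher numbered 195 with DESeq2, 63 with the replicate block, 182 at adjusted p under 0.1 and 22 to 165 when 1 library was left out. Genes called lower numbered 231 with DESeq2, 165 with the sex term, 91 in the male libraries, 269 at adjusted p under 0.1 and 34 to 242 when 1 library was left out. Members near 0 changed sign: Slc2a3 to -0.039 in males, Pfkfb4 to -0.0096 with upper-quartile factors, Aldoa to -0.0031 with upper-quartile factors and -0.023 in males, and Ppp1r3c to -0.081 in males. When 1 library was left out, Pfkfb4 ranged from -0.052 to 0.073, Aldoa from -0.091 to 0.12, Gapdh from -0.033 to 0.15, P4ha2 from -0.21 to 0.0010 and Ppp1r3c from -0.13 to 0.21. The cause was not tested. Libraries that share a replicate number deviated together only weakly, with correlations of 0.053, 0.048 and 0.172 across genes, so the numbers were not taken as pairs, and the block called Slc16a3 as the 1 glycolytic member and 129 genes lower. Replicate 3, with the correlation of 0.172, was the female library in each group, so the block and the sex term are not separate checks. Differences in family shares (percentage points) moved by less than the larger of the groups' SDs on raw counts or without any 1 library. Those moving by over 1.5 times were Hk2 (3.84, and 2.29 without control 3), Slc16a3 (4.76, and 2.69 without control 3), Slc2a1 (1.63, 1.05 without ecko 1 and 2.75 without ecko 3), Pgam1 (7.53, and 4.37 without control 1) and Aldoa (-0.045, within -0.12 to 0.025). At this depth, Ankrd37, with 32 to 61 counts, is the member least well measured.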

Other observations

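Beside Ddit4 and Ppp1r3c, control 3 stood apart in a gene outside the 35 that was named after its values were seen. Pdk4, a pyruvate dehydrogenase kinase raised by fasting and glucocorticoids, had 142, 190.1 and 179 CPM in the ecko libraries, against 118, 168 and 44.1 CPM in the controls, with overlap and a log2 fold change of 0.63 (SE 0.36, edgeR adjusted p = 0.439). Of 8 genes beside Pdk1 that encode or regulate pyruvate dehydrogenase, 0 passed in edgeR, DESeq2 or limma-voom, and their median log2 fold change was -0.02. At an unadjusted p under 0.05 in edgeR, 2 lay toward lower values, against 7.95% of all genes tested, and 0 toward higher ones, against 7.41%. Pdk2, the kinase found in most tissues, had 49.4, 54.1 and 52.3 CPM in the ecko libraries, against 60.4, 57.8 and 56.8 CPM in the controls, without overlap, at a log2 fold change of -0.17 (edgeR adjusted p = 0.241). Pdk1, the member of this family among the 35, had a log2 fold change of 0.23, and the difference between the kinases was not tested.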
